A study of Mus musculus with 6 samples.

Results

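The genes of the mitochondrial respiratory chain were examined in mouse fibroblasts of 3 origins. They were taken by symbol and cover subunits of complexes I to IV and of ATP synthase, counted here as complex V. The rule found 103 of the 57180 gene identifiers in the table: 13 genes of the mitochondrial genome (7 of complex I, 1 of complex III, 3 of complex IV and 2 of complex V) and 90 nuclear genes (41, 4, 8, 19 and 18 of complexes I, II, III, IV and V). It left out 8 symbols that contain -ps, among them Ndufb1-ps, which had 222 to 681 reads per library. No measured value entered the choice. Reads were present for 100 members, and 96 passed the filter on low counts, among them all 13 mitochondrial genes and 83 nuclear ones. The members at 0 reads in all libraries were Cox7b2, Cox8c and a second Atp5o identifier, and Ndufa11b, Ndufb4c, Ndufs6b and Cox8b had too few reads to be tested. Among the nuclear members 4 are annotated as processed pseudogenes: Ndufa11b, Ndufb4c, Ndufs6b and Cox6c2, of which only Cox6c2 was tested.

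Most cells make ATP by passing electrons from NADH and succinate through complexes I, II, III and IV to oxygen, and ATP synthase uses the proton gradient that this builds. The mitochondrial genome encodes the hydrophobic core subunits of complexes I, III, IV and V, and these are transcribed inside the organelle as long joint transcripts from both strands. All other subunits, and all of complex II, are nuclear genes whose proteins are imported, so each of these complexes except complex II is assembled from products of both genomes.

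Cells came from the heart (cardiac fibroblasts), the lung (lung fibroblasts) or the tip of the tail (tail tip fibroblasts), were grown in DMEM with 10% serum, and were infected for 48 h with an adenovirus for Cre recombinase (Ad-Cre, which the labels equate with a GATA4 knockout) or for green fluorescent protein (Ad-GFP, the control). The genotype is given as wild type in all 6 libraries; the sources used here give no strain, no age and no deleted part of Gata4. Each of the 6 groups holds 1 library of polyadenylated RNA, with 26170316 to 33779069 counts, and whether the libraries of an origin come from one cell preparation is not stated. Gata4 had 4561 reads in the cardiac library labelled Ad-Cre and 4769 in the cardiac Ad-GFP library, 492 and 428 in the lung pair, and 2 and 1 in the tail tip pair. Relative to library size it was not lower in any library labelled Ad-Cre (149 and 147 CPM in cardiac, 19.2 and 14.7 CPM in lung), so that label is given here as the submitters wrote it. The 9 fibroblast markers, all detected, summed to 7807 to 23340 CPM (reads scaled by library size) over the 6 libraries. Single markers differed between origins. Their fitted log2 values ran from -3.00 to 2.44 in cardiac against lung, and from -6.53 to 1.05 in cardiac against tail tip. In lung against tail tip they ran from -3.72 to 0.41. The 9 macrophage and leukocyte markers summed to 616 and 1032 CPM in cardiac, 14.9 and 19.3 CPM in lung, and 4447 and 5239 CPM in tail tip libraries (labelled Ad-Cre, then Ad-GFP), with C1qa and C1qb at 0 reads in lung. The 8 cardiomyocyte markers summed to 56.5 and 77.4 CPM in cardiac, 35.6 and 26.6 CPM in lung, and 2.93 and 3.33 CPM in tail tip libraries, and Tnnt2 held most of these reads. These marker levels move with origin, as do the results between origins below, and their part in those results was not tested. In bulk RNA, fewer cells of a type and less RNA per cell cannot be told apart.

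The mitochondrial genes fell into 2 very different levels. Those for mt-Nd1, mt-Nd2, mt-Nd4, mt-Nd5 and mt-Nd6 of complex I, cytochrome b (mt-Cytb) of complex III and the catalytic subunit of complex IV (mt-Co1) averaged 1047 to 6832 CPM over the 6 libraries. The other 6, mt-Co2, mt-Atp8, mt-Atp6, mt-Co3, mt-Nd3 and mt-Nd4l, averaged 2.85 to 16.5 CPM. These 6 lie next to each other on the mitochondrial genome, as genes 4 to 9 of the 13 in order. mt-Co1 was the most abundant member of all, at 8601 and 7065 CPM in the cardiac libraries labelled Ad-Cre and Ad-GFP, 7754 and 9290 CPM in lung and 4462 and 3816 CPM in tail tip. Per kilobase of transcript it averaged 4422 CPM, against 24.1 for mt-Co2, a subunit of the same enzyme.

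**Figure D1:**
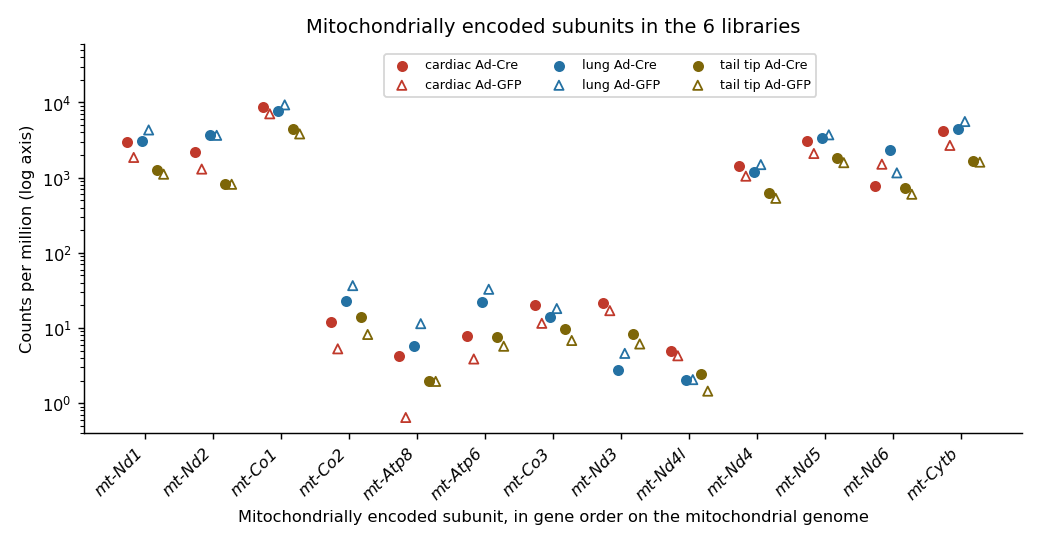
Level of the 13 mitochondrially encoded subunits in each library, in gene order along the mitochondrial genome, in CPM on a log axis (filled circles labelled Ad-Cre, open triangles Ad-GFP). Genes 4 to 9, from mt-Co2 to mt-Nd4l, average 2.85 to 16.5 CPM, against 1047 to 6832 for the others.

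Counts of the low genes are uncertain, because 5 of the 6 have an almost identical annotated copy on chromosome 1. In a search of the GENCODE M21 transcripts, mt-Co2 matched Gm28661, mt-Atp6 matched Gm10925 and mt-Co3 matched Gm28437 without a mismatch over 99.6%, 99.6% and 99.9% of their length, and mt-Nd4l matched Gm10222 without a mismatch over 99%. mt-Nd3 differed from Gm28438 by 1 base over 99.1% of its length. The best match of mt-Atp8 was only 81.4% identical, and of the abundant genes mt-Nd4 had a copy without a mismatch, Gm28439, over 63.6% of its length. A short read cannot be placed between sequences without a difference, and the part of the copies in the low counts was not tested. Counts of gene and copy together came to at most 70.1 CPM (mt-Atp6 with Gm10925 in the lung Ad-GFP library). Any reads assigned to neither would be missing from this sum.

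The sequences below contrast a gene that its copy matches closely with one that it does not. They are the start of mt-Nd3 and of mt-Nd6 as annotated in GENCODE M21 (GRCm38, chrM:9459-9758 on the plus strand and chrM:13771-14070 on the minus strand), and capitals mark the bases that differ from the best annotated copy.
mt-Nd3: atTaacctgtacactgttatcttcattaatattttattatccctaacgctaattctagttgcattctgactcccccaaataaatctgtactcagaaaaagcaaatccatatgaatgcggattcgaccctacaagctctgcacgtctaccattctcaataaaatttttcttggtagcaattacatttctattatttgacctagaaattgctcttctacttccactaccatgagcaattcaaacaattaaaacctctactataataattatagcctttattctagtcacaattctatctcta
mt-Nd6: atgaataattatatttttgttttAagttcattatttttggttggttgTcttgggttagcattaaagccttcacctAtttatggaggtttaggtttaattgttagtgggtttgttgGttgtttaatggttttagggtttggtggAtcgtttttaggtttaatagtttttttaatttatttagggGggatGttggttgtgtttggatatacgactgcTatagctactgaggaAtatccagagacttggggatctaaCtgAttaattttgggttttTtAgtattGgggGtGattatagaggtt
Over the 99.1% of its length that aligned with Gm28438, mt-Nd3 differs only at the third base of the gene. By contrast, mt-Nd6 has 16 differences in these 300 bases from Gm11408 and no identical run longer than 39 bases over its whole length.

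The reads of mt-Nd3, a complex I subunit, split between gene and copy in opposite ways in the origins. The gene had 653 and 554 reads in the cardiac libraries labelled Ad-Cre and Ad-GFP, 72 and 134 in lung and 276 and 195 in tail tip. Gm28438 had 49 and 28 reads in cardiac, 866 and 1137 in lung and 24 and 10 in tail tip. The gene thus held 93.0% and 95.2% of their joint reads in cardiac and 92.0% and 95.1% in tail tip, but 7.68% and 10.5% in lung, and no lung library came near the others. In the fit on the gene alone mt-Nd3 was 2.36 log2 units higher in cardiac than in lung fibroblasts (SE 0.33, adjusted p = 0.00177) and 0.95 lower in lung than in tail tip fibroblasts (adjusted p = 0.0445). With the copies' reads added, a choice made after the data were seen, both directions turned: mt-Nd3 was then 0.99 log2 units lower in cardiac than in lung (log2 -0.99, SE 0.22, adjusted p = 0.0125) and 2.39 higher in lung than in tail tip (SE 0.24, adjusted p = 0.000188). For mt-Nd4l the gene likewise held 73.8% and 95.9% of the joint reads with Gm10222 in cardiac and 81.0% and 69.7% in tail tip, but 34.4% and 28.3% in lung. For mt-Co2 the gene held 57.0% to 67.3% in every library. The sources used here do not say whether all libraries were counted with the same settings and sequences, and the part of counting in the lung levels of mitochondrial genes was not tested, a limit on every comparison of these genes with lung.

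Most mitochondrial transcripts were lower in tail tip than in lung or cardiac fibroblasts. The p-values between origins are from edgeR's quasi-likelihood test in 1 model of origin and virus, adjusted by the Benjamini-Hochberg method over 18143 genes, and they measure only the spread between these libraries, which may be technical. Values listed for an origin are those of the library labelled Ad-Cre, then Ad-GFP, and fold changes are log2 values with their standard error (SE). mt-Nd2, a core subunit of the membrane arm of complex I, had 3640 and 3655 CPM in lung libraries (labelled Ad-Cre, then Ad-GFP), against 822 and 816 CPM in tail tip libraries. Its level was 2.16 log2 units higher in lung (SE 0.23, adjusted p = 0.000258), and the cardiac libraries lay between, at 2194 and 1300 CPM. mt-Cytb, the only mitochondrial subunit of complex III, had 4492 and 5578 CPM in lung and 1643 and 1608 CPM in tail tip (log2 1.64, SE 0.24, adjusted p = 0.00121). mt-Co1 was 1.05 log2 units higher in lung than in tail tip (SE 0.19, adjusted p = 0.00332).

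In lung against tail tip fibroblasts, 11 of the 13 mitochondrial genes rose and 1, mt-Nd3, fell, with a median of 1.40 log2 units, where 22.3% of all tested genes rose and 28.2% fell with a median of -0.06. The remaining gene, mt-Nd4l, had 2.03 and 2.06 CPM in lung and 2.44 and 1.45 CPM in tail tip. With the copies' reads added, 13 of 13 rose. In cardiac against tail tip fibroblasts 7 rose and 0 fell (mt-Nd1, mt-Nd2, mt-Nd3, mt-Nd4, mt-Nd4l, mt-Cytb and mt-Co1, log2 0.92 to 1.41), with a median of 0.92, where 15.5% of all genes rose and 18.0% fell. Of these 7 calls only those of mt-Nd1 and mt-Nd4 held whichever library was left out. Without the tail tip library labelled Ad-Cre, mt-Nd2 (adjusted p = 0.103) and mt-Cytb (0.0556) were lost, without tail tip Ad-GFP mt-Co1 (0.151) and mt-Nd3 (0.0931), and mt-Nd4l was lost without any 1 of the lung or tail tip libraries (0.0631 to 0.524) and without TMM factors (0.0552). In cardiac against lung fibroblasts 3 fell and 1 rose, with a median of -0.57, where 20.8% of all genes rose and 17.6% fell. Those that fell were mt-Nd2 (log2 -1.09, SE 0.22, adjusted p = 0.00813) and, at low counts, mt-Co2 (log2 -1.88) and mt-Atp6 (log2 -2.30), and the one that rose was mt-Nd3. The 3 comparisons share libraries pairwise and are not independent of each other. In lung against tail tip the call of mt-Nd6 (adjusted p = 0.0258) was lost in DESeq2 (0.0942) and without the lung library labelled Ad-Cre (0.354), and that of mt-Atp8 (adjusted p = 0.0468) in limma-voom (0.0517), without TMM factors (0.061) and without lung Ad-GFP (0.541). Without lung Ad-GFP the calls of mt-Co2 (0.215) and mt-Co3 (0.352) were lost too, that of mt-Co3 also without tail tip Ad-GFP (0.149), and that of mt-Nd3 was lost in limma-voom (0.0519) and without the lung (0.387) or tail tip (0.302) library labelled Ad-Cre.

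As a share of all counts, mitochondrial members took 2.38% of the cardiac library labelled Ad-Cre and 1.70% of the cardiac Ad-GFP library, 2.55% and 2.89% in lung, and 1.17% and 1.04% in tail tip (the exact binomial 95% interval of the first is 2.37% to 2.38%, and it covers counting error only). Nuclear members took a narrower range, 0.626% and 0.525% in cardiac, 0.699% and 0.748% in lung and 0.594% and 0.599% in tail tip. The tail tip libraries are thus the lowest in mitochondrial share, with no overlap with the other origins, while their nuclear share lies within the cardiac range. The summed reads of all mitochondrial members divided by those of all nuclear members differed accordingly, at 3.8 and 3.23 in cardiac, 3.65 and 3.87 in lung and 1.97 and 1.73 in tail tip.

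Tail tip libraries were also lowest in complexes I, III and IV taken singly. For complex I the ratio was 7.54 and 6.06 in cardiac, 8.60 and 8.53 in lung and 3.52 and 3.07 in tail tip libraries. For complex III it was 7.0 and 5.29 in cardiac, 8.81 and 9.99 in lung and 3.26 and 3.15 in tail tip. Complex IV differed in that cardiac stood highest, at 9.46 and 9.81, against 8.29 and 8.71 in lung and 4.91 and 3.89 in tail tip. This ratio rests almost wholly on mt-Co1, since mt-Co2 and mt-Co3 belong to the low genes. In the cardiac library labelled Ad-Cre, mt-Co1 held 262943 of 263926 mitochondrial reads of complex IV. In complex V nuclear reads exceeded mitochondrial ones in all 6 libraries, with ratios of 0.00178 to 0.0116, since both mitochondrial subunits, mt-Atp6 and mt-Atp8, belong to the low genes whose counts are uncertain. A ratio of reads is not a ratio of molecules, as subunits differ in length.

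**Figure D2:**
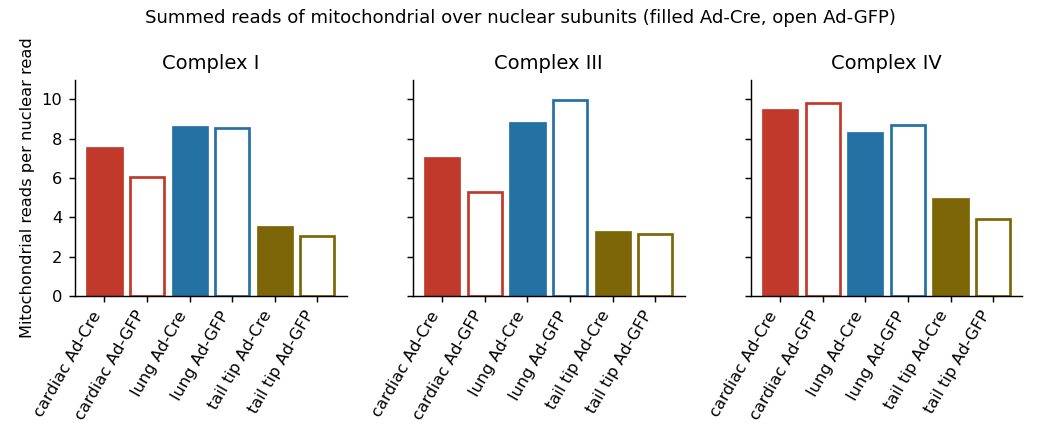
Summed reads of mitochondrially encoded subunits divided by those of nuclear subunits, for complexes I, III and IV in each library (bars start at 0; filled labelled Ad-Cre, open Ad-GFP; 1 library per bar). Tail tip libraries stand lowest in every panel, at 3.07 to 4.91, and lung and cardiac libraries at 5.29 to 9.99.

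Among nuclear members the most abundant per kilobase was Atp5b, the catalytic beta subunit of ATP synthase, with a mean of 630 CPM per kilobase. The leading genes of the other complexes were Cox4i1 (the ubiquitous subunit 4 of complex IV, 270 CPM per kilobase), Uqcrh (the hinge protein of complex III, 134), Ndufa4 (125) and Sdha (the flavoprotein of complex II, 74.6). Ndufa4 is grouped with complex I by its name, although its protein is now assigned to complex IV. Of the genes for the c-ring of ATP synthase, Atp5g3 averaged 238, Atp5g2 76.4 and Atp5g1 13.8 CPM per kilobase. These paralogues encode the same mature protein. Lengths are those of all annotated exons of a gene merged, which is 4912 bases for Atp5g1.

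Atp5b also differed between origins, with 1092 and 1028 CPM in cardiac libraries, 1723 and 1756 CPM in lung and 832 and 808 CPM in tail tip. It was lower in cardiac than in lung (log2 -0.72, SE 0.14, adjusted p = 0.00805) and higher in lung than in tail tip (log2 1.09, SE 0.15, adjusted p = 0.00078). Lung stood highest without overlap. Its partner Atp5d, the delta subunit of the same catalytic head, did likewise (log2 -0.90 for cardiac against lung and 1.00 for lung against tail tip). In complex V 5 of 17 tested nuclear members rose in lung against tail tip (Atp5b, Atp5d, Atp5c1, Atp5f1 and Atp5g3) and 2 fell (Atp5e and Atp5s). These are 29.4% and 11.8%, against 22.3% and 28.2% of all tested genes. In either direction 41.2% were called, against 50.6% of all genes.

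In complex I, Ndufs5, a small accessory subunit on the intermembrane side, was the nuclear member that differed most between cardiac and lung among those with a mean of at least 5 CPM. It had 106 and 81 reads (3.47 and 2.49 CPM) in cardiac, 590 and 720 reads (23.0 and 24.7 CPM) in lung and 179 and 177 reads (5.40 and 5.56 CPM) in tail tip libraries. Both lung libraries stand far above the other 4. Its level fell by 3.01 log2 units in cardiac against lung (SE 0.26, adjusted p = 0.000201), and rose by 2.12 in lung against tail tip (SE 0.25, adjusted p = 0.000395). Ndufa12, an accessory subunit at the junction of the arms, had 27.7 and 27.2 CPM in cardiac, 79.1 and 84.8 CPM in lung and 29.2 and 32.1 CPM in tail tip. Ndufs7, a core iron-sulphur subunit, and Ndufa2, an accessory one, also fell in cardiac against lung (log2 -0.88 and -1.28) and rose in lung against tail tip (log2 1.00 and 0.73).

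Other complex I subunits were highest in tail tip fibroblasts. Ndufv3, an accessory part of the NADH-binding module, had 16.9 and 17.5 CPM in cardiac, 27.0 and 23.9 CPM in lung and 51.4 and 50.3 CPM in tail tip libraries. It fell by 1.56 log2 units in cardiac against tail tip (SE 0.16, adjusted p = 0.000498) and by 1.00 in lung against tail tip (SE 0.16, adjusted p = 0.00187). Ndufa13, an accessory subunit also known as GRIM-19, and Ndufb7 fell in both of these comparisons, by 0.95 and 0.63 log2 units in cardiac and by 0.78 and 1.17 in lung. Ndufa6 and Ndufa7 fell in cardiac against both other origins, by 0.80 and 0.53 against lung and by 0.78 and 0.80 against tail tip. In lung against tail tip 5 of the 38 tested nuclear members of complex I rose and 4 fell (13.2% and 10.5%), against 22.3% and 28.2% of all genes. In cardiac against lung 1 rose and 10 fell (2.63% and 26.3%), against 20.8% and 17.6% of all genes. In cardiac against tail tip 0 rose and 8 fell (0% and 21.1%), against 15.5% and 18.0% of all genes.

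Complexes II, III and IV had 4, 8 and 16 tested nuclear members. In cardiac against lung 0%, 25% and 25% of these were called in either direction, against 38.4% of all genes. The shares were 0%, 12.5% and 18.8% in cardiac against tail tip (33.5% of all genes). In lung against tail tip they were 25%, 0% and 18.8% (50.6% of all genes). In complex II only Sdhc, a membrane anchor, passed the test in any comparison (lower in lung than in tail tip, log2 -0.51, SE 0.15, adjusted p = 0.026). In complex III Uqcr11 fell and the Rieske iron-sulphur protein Uqcrfs1 rose in cardiac against lung (log2 -0.77 and 0.49), and the core protein Uqcrc1 rose in cardiac against tail tip (log2 0.57). In complex IV Cox7c fell in cardiac against both other origins (log2 -0.92 against lung and -0.58 against tail tip), Cox7b fell against lung, and Cox8a and Cox6a1 fell against tail tip. The call of Uqcrfs1 was lost without a filter on low counts (adjusted p = 0.0941) and in the fits without the cardiac library labelled Ad-Cre (0.0521), the lung library labelled Ad-Cre (0.194) or Ad-GFP (0.204), or either tail tip library (0.183 each). That of Cox7c against tail tip was lost with DESeq2 size factors (0.0508) and without the tail tip library labelled Ad-Cre (0.262) or Ad-GFP (0.221).

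Over all 83 tested nuclear members, 5 rose and 16 fell in cardiac against lung (6.02% and 19.3%, median log2 -0.29), against 20.8% and 17.6% of all tested genes. In cardiac against tail tip 2 rose and 11 fell (2.41% and 13.3%, median -0.22), against 15.5% and 18.0% of all genes, and in lung against tail tip 10 rose and 10 fell (12% each, median 0.09), against 22.3% and 28.2%. Medians over all tested genes were -0.01, -0.06 and -0.06. With mitochondrial members included, 25, 20 and 32 members were called in these comparisons, which is 26%, 20.8% and 33.3% of those tested, below the 38.4%, 33.5% and 50.6% of all genes. The number depended on single libraries. For cardiac against lung it was 16 without lung Ad-GFP, 54 without the cardiac library labelled Ad-Cre and 39 without cardiac Ad-GFP. For cardiac against tail tip it was 47 and 34 without these cardiac libraries and 7 without either tail tip library, and for lung against tail tip 55 without either cardiac library and 21 without the tail tip library labelled Ad-Cre. Calls that held whichever library was left out numbered 12, 4 and 15, among them Ndufs5, Ndufa12, Atp5b, Atp5d and Ndufs7 in both comparisons with lung, and Ndufa4l2 and Ndufv3 in both comparisons with tail tip.

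Isoforms with restricted expression differed most sharply between origins. Ndufa4l2, a relative of Ndufa4 that is induced by hypoxia, had 0 and 1 reads in the cardiac libraries labelled Ad-Cre and Ad-GFP, 4 and 1 in lung and 1666 and 1390 in tail tip (50.3 and 43.7 CPM). Tail tip libraries together exceeded lung libraries 516-fold (exact 95% interval 221 to 1590, counting error only), and the test called it lower in lung and in cardiac than in tail tip (adjusted p = 1.02e-05 and 2.61e-05). With 1 read in both cardiac libraries the ratio of cardiac to tail tip was 0.000337 (8.52e-06 to 0.00188).

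Cox6b2, known as the testis isoform of subunit 6b, had 34 and 0 reads in cardiac, 4 and 0 in lung and 120 and 155 in tail tip libraries, so all of its cardiac and lung reads came from libraries labelled Ad-Cre. It fell in lung against tail tip (adjusted p = 0.0123), where the summed reads of tail tip exceeded those of lung 58.0-fold (22.4 to 215). Its ubiquitous counterpart Cox6b1 had 114 and 67.9 CPM in cardiac, 84.2 and 115 CPM in lung and 109 and 118 CPM in tail tip. Cox4i2, the isoform of subunit 4 known from lung and from low oxygen, was instead lowest in the lung libraries: it had 55 and 33 reads in cardiac, 5 and 3 in lung and 31 and 32 in tail tip. It rose in cardiac against lung (adjusted p = 0.0119; summed ratio 9.55, 4.64 to 22.8) and fell in lung against tail tip (adjusted p = 0.0159). Leaving out a lung library, the one labelled Ad-Cre or Ad-GFP, ended these calls (adjusted p 0.235 and 0.288 for Cox6b2, 0.0509 and 0.074 for Cox4i2 in cardiac against lung, 0.0646 and 0.117 in lung against tail tip), and leaving out a tail tip library ended that of Cox4i2 against tail tip (0.0535 and 0.205).

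The isoforms known from heart and skeletal muscle were at the edge of detection. Cox6a2 had 0 and 0 reads in cardiac, 10 and 11 in lung and 4 and 12 in tail tip libraries. Taking 3 counts as the most that 0 reads allow over both cardiac libraries, it was at least 8.06-fold lower in cardiac than in lung at the 21 reads counted there, and at least 6-fold lower by the exact 95% limit, which also covers the counting error of lung. The difference passed the test (adjusted p = 0.0323) but not without the lung library labelled Ad-Cre (0.228) or Ad-GFP (0.142), or the tail tip one labelled Ad-Cre (0.0782) or Ad-GFP (0.109). Cox7a1 had 4 and 7 reads in cardiac, 9 and 11 in lung and 28 and 25 in tail tip, and Cox8b had 0 and 4, 1 and 1, and 0 and 0. The ubiquitous isoforms carried the signal: Cox6a1 had 93.4 to 95.4 CPM in cardiac, 76.4 to 85.3 CPM in lung and 127 to 132 CPM in tail tip, Cox7a2 39.2 to 64.6, 42.1 to 57.9 and 42.7 to 44.7 CPM, and Cox7a2l 61.9 to 75.5 CPM over all libraries.

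**Figure D3:**
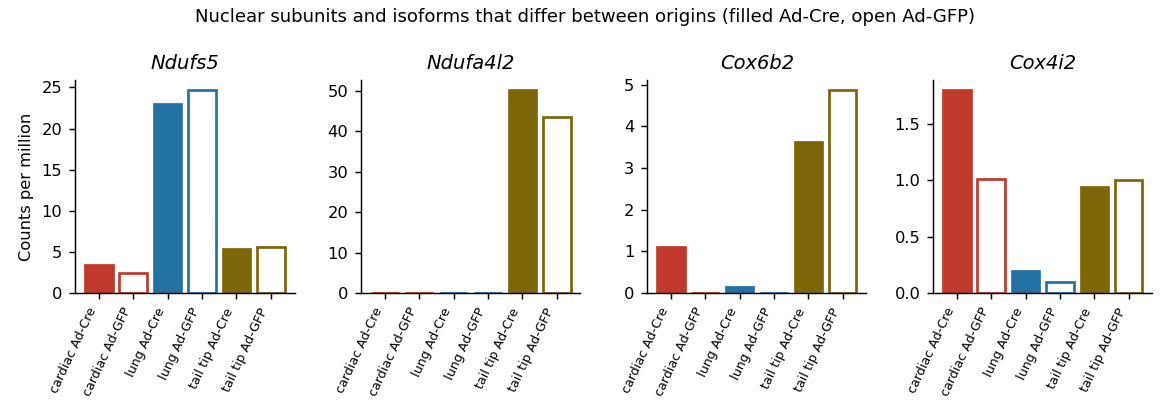
Level in CPM of Ndufs5, Ndufa4l2, Cox6b2 and Cox4i2 in each library (bars start at 0 and each panel has its own scale; filled labelled Ad-Cre, open Ad-GFP; 1 library per bar). Ndufs5 is highest in both lung libraries (23.0 and 24.7), Ndufa4l2 is found in tail tip (50.3 and 43.7), and Cox4i2 is lowest in lung.

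Promoters of nuclear members are shown because these genes depend on nuclear factors known to bind them, among them NRF1, YY1 and Ets proteins such as GABP. RefSeq promoter sequences (GRCm38.p6, 250 bases before to 50 after the start) were found for 67 nuclear members. A motif for NRF1, GCGCNTGCGC on either strand, stood in 17 of them (25.4%), against 5.19% of 27025 genes with a promoter. The YY1 motif AAGATGGC stood in 9 (13.4%, against 3.19%) and the Ets motif CCGGAAG in 16 (23.9%, against 9.93%), both strands counted. CCAAT was about as frequent as in other genes (43.3% against 41.1%), and TATAAA stood in 10.4% against 15.7%. The 4 promoters below belong to the complex I subunit highest in lung, to the ATP synthase subunit with the largest difference between the cardiac libraries, and to the restricted and ubiquitous subunits 6b; they lie at chr4:123718137-123718436, chr5:108434350-108434649, chr7:4753045-4753344 and chr7:30626065-30626364, all on the minus strand. Capitals mark the NRF1, YY1 and Ets motifs.
Ndufs5: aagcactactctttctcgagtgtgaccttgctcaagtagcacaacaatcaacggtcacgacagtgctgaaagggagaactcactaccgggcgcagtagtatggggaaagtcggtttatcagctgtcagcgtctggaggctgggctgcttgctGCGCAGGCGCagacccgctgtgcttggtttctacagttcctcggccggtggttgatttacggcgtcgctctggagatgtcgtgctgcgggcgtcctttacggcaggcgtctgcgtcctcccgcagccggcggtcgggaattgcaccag
Atp5k: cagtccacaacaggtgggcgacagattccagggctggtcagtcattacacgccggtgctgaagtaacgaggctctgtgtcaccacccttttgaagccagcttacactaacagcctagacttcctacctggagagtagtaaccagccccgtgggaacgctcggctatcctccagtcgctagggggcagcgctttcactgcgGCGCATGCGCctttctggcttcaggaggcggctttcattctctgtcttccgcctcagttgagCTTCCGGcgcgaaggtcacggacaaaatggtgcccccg
Cox6b2: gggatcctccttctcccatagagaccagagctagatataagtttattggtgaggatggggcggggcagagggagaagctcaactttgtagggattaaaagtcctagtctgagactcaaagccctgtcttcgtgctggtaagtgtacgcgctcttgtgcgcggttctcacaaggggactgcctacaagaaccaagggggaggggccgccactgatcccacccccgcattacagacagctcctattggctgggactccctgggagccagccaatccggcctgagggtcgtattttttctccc
Cox6b1: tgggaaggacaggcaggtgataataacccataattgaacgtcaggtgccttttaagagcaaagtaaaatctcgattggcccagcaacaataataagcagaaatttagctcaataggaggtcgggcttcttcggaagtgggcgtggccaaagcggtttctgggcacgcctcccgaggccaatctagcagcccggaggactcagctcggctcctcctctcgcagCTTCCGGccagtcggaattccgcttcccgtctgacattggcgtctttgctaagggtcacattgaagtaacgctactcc
Ndufs5 holds 1 NRF1 motif, Atp5k 1 NRF1 and 1 Ets motif, Cox6b1 1 Ets motif and Cox6b2 none of these letters. A match describes the sequence and not binding.

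For the virus, 1 effect shared by all origins was tested. No member and no gene was called (0% of 18143; lowest adjusted p 0.9996), while 367 genes and 0 members had an unadjusted p under 0.05, and DESeq2 called 3 genes and limma-voom 0, neither calling a member. All 13 mitochondrial genes had a fitted log2 value above 0, from 0.06 for mt-Nd3 to 0.44 for mt-Atp8 (SE 0.26 and 0.66), with a median of 0.22, against 0.04 for nuclear members and 0.00 for all genes. When a cardiac library was left out, mt-Nd6 was called (log2 0.63 without the one labelled Ad-Cre, adjusted p = 0.00172, and 0.66 without Ad-GFP, adjusted p = 0.00184), and when a tail tip library was left out, Cox6b2 was (adjusted p = 0.0102 and 0.0207). Within an origin there is 1 library per virus and so no test, and the following are values of these libraries with intervals for counting error only.

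In the cardiac pair, 25 members were at least 1.5-fold higher and 1 was at least 1.5-fold lower in the library labelled Ad-Cre than in the Ad-GFP library, where 19.5% of all tested genes were higher and 17.4% lower by that measure. The median log2 ratio was 0.65 for mitochondrial and 0.25 for nuclear members, against 0.00 for all genes. The largest differences among nuclear members with a mean of at least 5 CPM were those of Atp5k, the small subunit e of ATP synthase (25 CPM labelled Ad-Cre and 9.74 CPM with Ad-GFP, ratio 2.56, 2.25 to 2.93), Ndufa1, an accessory subunit of complex I (22.2 and 9.46 CPM, ratio 2.35), Uqcr10 of complex III (32.4 and 16.6 CPM) and Ndufa3 (24.4 and 12.6 CPM). By complex, summed nuclear reads were 1.07 times higher in complex I, 1.12 in II, 1.18 in III, 1.26 in IV and 1.11 in V. The mitochondrial member mt-Nd1 had 2989 CPM in the library labelled Ad-Cre and 1857 CPM with Ad-GFP. Epithelial markers moved the same way in this pair, at 128 and 9.67 CPM (6 markers). The 5 mesothelial markers summed to 116 and 56.6 CPM, with 3 at least 1.5-fold higher and 1 lower in the library labelled Ad-Cre. The 9 fibroblast markers stood at 15040 and 23340 CPM, with 6 at least 1.5-fold lower and 2 higher in that library. Macrophage markers stood at 616 and 1032 CPM. The part of these markers was not tested.

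In the lung pair the direction was mostly the other. There 4 members were at least 1.5-fold higher and 6 lower in the library labelled Ad-Cre, where 11.1% of all genes were higher and 8.18% lower. The higher ones were mt-Nd6 and, at very few reads, Ndufa4l2 (4 and 1), Cox6b2 (4 and 0) and Cox4i2 (5 and 3). The median log2 ratio was -0.35 for mitochondrial and -0.11 for nuclear members (0.03 for all genes). Epithelial markers were higher in the library labelled Ad-Cre here too, at 6.27 and 0.377 CPM, and fibroblast markers stood at 8452 and 7807 CPM. Atp5k (19.5 and 34.5 CPM, ratio 0.566, 0.508 to 0.631), Uqcrb, which binds ubiquinone in complex III (33.0 and 49.5 CPM), Ndufa1 (15.8 and 23.3 CPM) and Ndufb4 (7.87 and 11.5 CPM) led the lower ones. In the tail tip pair 2 members were higher and 3 lower, where 4.76% of all genes were higher and 5.42% lower. The higher ones were mt-Co2 and mt-Nd4l, and beside Cox6a2 (4 and 12 reads) the lower ones were Cox5a, a complex IV subunit that binds a thyroid hormone metabolite (26.1 and 50.3 CPM, ratio 0.520, 0.478 to 0.565), and Ndufab1, the mitochondrial acyl carrier protein (22.2 and 39.4 CPM). Cox5b followed at a smaller difference, with 49.5 and 71.5 CPM.

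**Figure D4:**
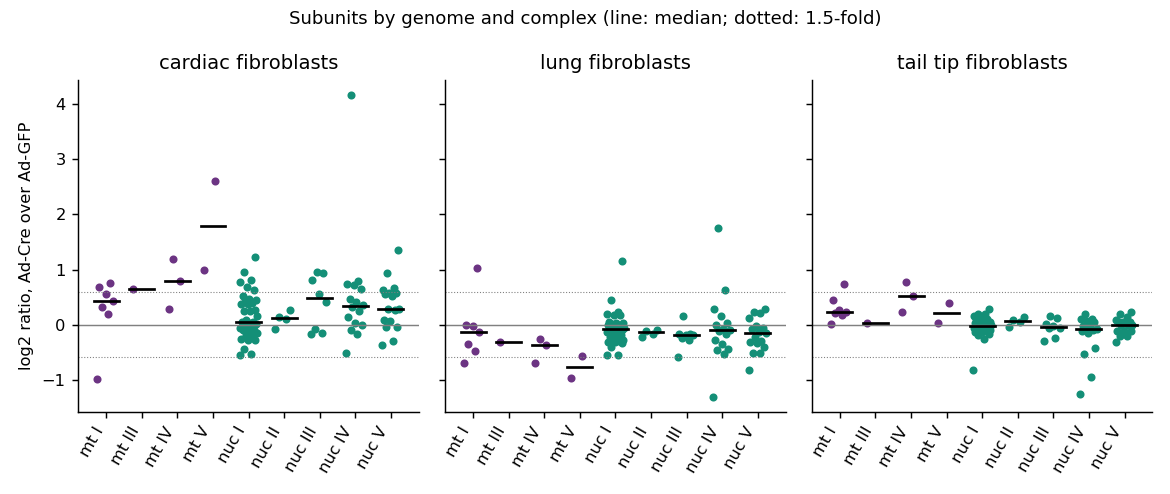
log2 ratio of the library labelled Ad-Cre over the Ad-GFP library for each tested member, by genome (mt, mitochondrial; nuc, nuclear) and complex, in each origin (points are genes, black lines medians, dotted lines 1.5-fold; 1 library per virus). Mitochondrial medians lie above 0 in cardiac and tail tip libraries and below 0 in lung ones.

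The ratios of the cardiac and lung pairs, which share no library, tended to opposite signs gene by gene. Of the 83 tested nuclear members 49 were higher in the cardiac and lower in the lung library labelled Ad-Cre, 12 the reverse, and 22 had one sign in both. Opposite signs were common elsewhere too: of 14140 other protein-coding genes 3412 were higher in cardiac and lower in lung, 4534 the reverse, and 5903 had one sign. Spearman's rho between the pairs was -0.55 across the nuclear members and -0.09 across the other coding genes. Members are not independent replicates of a condition. All 13 mitochondrial members had opposite signs. Short members stood apart in both pairs. The 6 tested nuclear members with merged exons under 500 bases had a median log2 ratio of 0.79 in cardiac and -0.53 in lung libraries. Among the 6 is the pseudogene Cox6c2. For the 54 other coding genes of that length the median was 0.17 and -0.12. Over nuclear members rho between length and ratio was -0.38 in cardiac and 0.29 in lung, against 0.15 and 0.03 over other coding genes. The part of length in these ratios was not tested.

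mt-Nd6 ran against the other mitochondrial genes. It is the only mitochondrial protein gene on the light strand and lies beside mt-Nd5 on the other strand. The sources used here give no strand setting for the counting, and without strand its reads cannot be told apart from antisense ones. It had 23401 reads in the cardiac library labelled Ad-Cre and 49157 with Ad-GFP, 60717 and 33769 in the lung pair and 23984 and 19148 in the tail tip pair. Per read of mt-Nd5 this is 0.248 and 0.721 in cardiac, 0.695 and 0.312 in lung and 0.395 and 0.380 in tail tip. The log2 ratio was -0.98 in cardiac, where the other 12 lay between 0.19 and 2.60, and 1.03 in lung, where the other 12 lay between -0.96 and -0.01. In the tail tip pair it was 0.27, within the range of the others.

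Genes that serve the mitochondrial genome and its translation often rose in lung against tail tip fibroblasts. Of 31 tested genes for mitochondrial DNA replication, transcription and RNA stability 16 rose and 0 fell, with a median log2 of 0.64, and of 78 mitochondrial ribosomal proteins 36 rose and 3 fell (median 0.49), beside the 22.3% of all genes that rose. Lrpprc, which stabilises mitochondrial mRNA, had 173 and 164 CPM in lung and 69.2 and 66.0 CPM in tail tip (log2 1.32, SE 0.14, adjusted p = 0.00027). Polrmt, the mitochondrial RNA polymerase, had 68.7 and 58.8 CPM in lung and 32.1 and 32.4 CPM in tail tip (log2 0.99, adjusted p = 0.00747). Mgme1, a nuclease of mitochondrial DNA maintenance, rose by 1.59 log2 units, and the ribosomal protein gene Mrpl47 by 1.64. These are counts of lists and were not tested against other lists.

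In cardiac against lung fibroblasts, where 20.8% of all genes rose and 17.6% fell, 0 of the 31 rose and 12 fell (38.7%), with Top1mt, a mitochondrial topoisomerase, at log2 -1.57, Ssbp1, the single-strand binding protein, at -1.18 and Polrmt at -1.17, and 3 of the 78 ribosomal genes rose and 25 fell (32.1%). In cardiac against tail tip 6 of 31 rose (19.4%) and 0 fell, led by Fastkd5 (log2 1.12), an RNA-processing factor, and 12 of 78 rose (15.4%) and 1 fell, led by Mrps6 (log2 1.19). Both shares that rose are near the 15.5% of all genes, while 18.0% of all genes fell.

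Markers of the organelle and genes of the tricarboxylic acid cycle often rose in lung against tail tip. Of 16 genes of the outer membrane, import and chaperones, 11 rose and 1 fell in lung against tail tip (median log2 0.93), 6 rose and 0 fell in cardiac against tail tip, and 2 rose and 4 fell in cardiac against lung. In these comparisons 22.3%, 15.5% and 20.8% of all genes rose and 28.2%, 18.0% and 17.6% fell. Not all markers followed lung: Vdac2, a channel of the outer membrane, was higher in cardiac than in lung (log2 0.84, SE 0.14, adjusted p = 0.00424). Hspd1, the matrix chaperonin, had 704 and 978 CPM in cardiac, 1588 and 1683 CPM in lung and 364 and 352 CPM in tail tip libraries (log2 2.19 for lung against tail tip, SE 0.18, adjusted p = 8.61e-05). Of 14 genes of the cycle 8 rose and 0 fell in lung against tail tip, 3 rose and 0 fell in cardiac against tail tip, and 1 rose and 4 fell in cardiac against lung, with Idh2, the mitochondrial NADP-dependent isocitrate dehydrogenase, at log2 2.14, 1.05 and -1.09.

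Assembly factors moved in both directions, and several of their shares lay near or below those of all genes (22.3% rose and 28.2% fell in lung against tail tip, 20.8% and 17.6% in cardiac against lung, 15.5% and 18.0% in cardiac against tail tip). Of 17 tested for complex I 3 rose and 6 fell in lung against tail tip (17.6% and 35.3%), with Ndufaf2 at log2 1.95 and Timmdc1 at -0.97, and of 36 for the other complexes 2 rose and 7 fell (5.56% and 19.4%), with Uqcc3 at -1.58 and Higd2a at -1.36. In cardiac against lung 2 of the complex I factors rose and 2 fell, and 3 of the others rose and 2 fell. In cardiac against tail tip 0 of the complex I factors rose and 1 fell, and 2 of the others rose and 4 fell. Of 14 genes for cytochrome c and coenzyme Q, 5 rose and 4 fell in lung against tail tip (35.7% and 28.6%), with Pdss1 at log2 2.41 and Coq8b at -2.02, 4 rose and 2 fell in cardiac against lung, and 3 rose and 3 fell in cardiac against tail tip. Of 13 nuclear regulators 6 rose and 2 fell in lung against tail tip (46.2% and 15.4%), 1 rose and 3 fell in cardiac against lung, and 2 rose and 1 fell in cardiac against tail tip. Nrf1, the regulator whose motif is named above, had 34.4 and 40.5 CPM in cardiac, 42.9 and 42.3 CPM in lung and 22 and 23.4 CPM in tail tip (log2 0.91 for lung against tail tip, SE 0.16, adjusted p = 0.00284). No gene of any of these lists was called for the virus. In the cardiac pair, where the median of the subunits was above 0, medians of these lists were below it, at log2 -0.16 for ribosomal proteins, -0.14 for the organelle markers and -0.05 for the cycle.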

How the data were processed

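RNA was measured by sequencing of polyadenylated RNA in 6 libraries, 1 per group of origin and virus. The deposited values are whole-number counts of reads per gene; per the submitters' processing notes STAR 2.0.7 and mm39 were used, while the counting tool, its annotation and its strand setting were not given in the sources used here. The table holds 57180 identifiers and 0 columns of other samples; 51884 matched a symbol in GENCODE M21 (GRCm38), from which names, lengths and copies were taken. The submitters' labels name a matrix titled for another subject, but its column names match these samples.

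Genes were filtered with filterByExpr (minimum count 10; 18143 kept) and fitted in edgeR 4.0.16 (R 4.3.3) with TMM factors (0.964 to 1.03) and an additive model of origin and virus with 2 residual degrees of freedom, the quasi-likelihood test and an adjusted p threshold of 0.05. This model takes the virus effect as equal in all origins. Ratios within an origin used a prior count of 2 and a 1.5-fold limit, with no test. Alternatives were DESeq2 1.42.0, limma 3.58.1 (voom), other scalings, no filter, a prior count of 0.5, leaving out each library, and, chosen after the data were seen, adding the reads of copies found with BLAST+ 2.17.0. Tables and plots used Python 3.11.15, pandas 2.3.3 and matplotlib 3.10.9.

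Members and lists were chosen with earlier results of these data known. Named by rule were the 13 mitochondrial genes, restricted isoforms and their paralogues, for each comparison the 6 nuclear members with the largest fold change and within each origin the 4 with the largest ratio (mean of at least 5 CPM), the most abundant nuclear member of each complex, and of each other list the 3 genes with the largest fold change in a comparison. Other members named, such as Sdhc, Uqcr11 and Cox7c, were chosen after their values were seen. Of 90 nuclear members, 6 have a near-identical annotated copy (Atp5h, Atp5l, the second Atp5o identifier, Ndufb4c, Ndufs3 and Uqcrb), so their counts are uncertain. Intervals and limits from 0 reads cover counting error only.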

Additional observations from a re-analysis of the deposited data

Results flagged for a closer look

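Summed levels in the library labelled Ad-Cre, divided by those with Ad-GFP, lay on opposite sides of 1 in cardiac and lung fibroblasts for each of 7 groups of subunits. The cardiac ratio divided by the lung ratio was 1.49 for the 7 abundant mitochondrial genes and 2.51 for the 6 low ones, and for nuclear subunits 1.14 in complex I, 1.23 in II, 1.30 in III, 1.44 in IV and 1.15 in V. With 1 library per group the difference was not tested. Single members also had opposite signs. Atp5k had a log2 ratio of 1.35 in cardiac, -0.82 in lung and -0.31 in tail tip, and Uqcrb of 0.94 in cardiac, -0.59 in lung and 0.17 in tail tip. For mt-Co2 it was 1.20 in cardiac, -0.70 in lung and 0.77 in tail tip, and for mt-Nd6 -0.98 in cardiac, 1.03 in lung and 0.27 in tail tip. These differences were not tested either.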

How the results depend on the processing

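No paired analysis was possible because each group holds 1 library and so has no replicate numbers to pair; the virus test itself compares the libraries within origins, through the term for origin. Genes called for the virus numbered 141 without a filter, 3 in DESeq2 and 11 to 109 with a library left out, and members 0 to 1. With a library left out, members called ranged from 16 to 54 (cardiac against lung), 7 to 47 (cardiac against tail tip) and 21 to 55 (lung against tail tip), and genes called from 5038 to 10065, 3110 to 9205 and 5995 to 12560; a group with 1 library left is assumed to vary like the others. Without a filter 33 members were called for cardiac against tail tip. Adding the copies' reads turned mt-Nd3 to -0.99 in cardiac against lung and to 2.39 in lung against tail tip, by construction. The lung median log2 ratio of mitochondrial genes was -0.37 with DESeq2 size factors, -0.37 without mitochondrial genes in the scaling and -0.31 with the copies' reads, all of one sign with the reported value, and the cardiac one was 0.73 without TMM factors. As a percentage of counts of coding genes, the mitochondrial share was 2.43% and 1.73% in cardiac (labelled Ad-Cre, then Ad-GFP), 2.64% and 2.99% in lung and 1.19% and 1.06% in tail tip. Of the 25, 20 and 32 member calls, 23, 17 and 29 held in the alternatives that kept all libraries. Causes were not tested. Depth limits the restricted isoforms and the low mitochondrial genes, whose values rest on few reads.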

Other observations

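Mitochondrial ribosomal RNA, which encodes no subunit, was highest in the lung libraries. mt-Rnr2, the large ribosomal RNA, had 2411 and 1794 CPM in cardiac libraries (labelled Ad-Cre, then Ad-GFP), 17720 and 17570 CPM in lung and 1167 and 904 CPM in tail tip. mt-Rnr1, the small one, had 260 and 264 CPM in cardiac, 1046 and 888 CPM in lung and 222 and 194 CPM in tail tip. These values were not tested here.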
